A study of Homo sapiens with 6 samples.

Results

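The transcripts described here are those of glycolysis and of the hypoxia response, 37 genes chosen by name. They comprise 17 glycolytic enzymes (HK1, HK2, GPI, PFKL, PFKM, PFKP, ALDOA, ALDOC, TPI1, GAPDH, PGK1, PGAM1, ENO1, ENO2, PKM, LDHA and LDHB), 3 membrane transporters of glucose or lactate (SLC2A1, SLC2A3 and SLC16A3), 4 kinases that set the flow of carbon through the pathway (PDK1, PDK3, PFKFB3 and PFKFB4) and 13 further genes that low oxygen induces (CA9, CA12, VEGFA, ADM, BNIP3, BNIP3L, ANKRD37, NDRG1, P4HA1, P4HA2, PLOD2, KDM3A and ERO1A). Of the 37 genes, 35 had at least 1 probe set, the unit of measurement of the array, that the platform annotation assigns to that gene alone. CA9 and SLC16A3 are not named in the annotation used and were not analysed here. These 35 genes had 84 probe sets of 54675 on the array, and all 35 were among the 12406 genes bright enough to be tested. All 35 are counted below, and 12 of their 84 probe sets, the dim ones, were not tested.

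RNA came from A549, an established human line of lung adenocarcinoma, on 3 arrays of cells in which NME2 was transiently silenced by short interfering RNA (siRNA) and on 3 arrays of cells given control siRNA. NME2 encodes a nucleoside diphosphate kinase that also binds DNA. The submitters describe the replicates as biological, but nothing says that they came from separate cultures, so p-values measure only the spread between these samples, which may be technical. In such bulk RNA, fewer cells that express a gene and less of its RNA per cell cannot be told apart.

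Glycolysis splits glucose into pyruvate in the cytosol and yields ATP without oxygen, and lactate dehydrogenase turns the pyruvate into lactate. When oxygen is scarce, hypoxia-inducible factors (HIF) escape degradation and raise the transcription of most glycolytic enzymes, of glucose transporters, and of genes for vessel growth, pH control, mitophagy and collagen modification. HIF dimers bind a short core with the letters ACGTG or GCGTG. Carcinoma lines often express glycolytic genes strongly in normal oxygen as well.

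The core letters were looked for in the 250 bases before each annotated gene start (RefSeq, build GRCh38.p14), on both strands, because they are the feature that the hypoxia-induced genes are known to share. A palindromic CACGTG counts as a match on each strand. Of all 35116 such windows, 43.2% held a match. The genes listed above had 60 windows for 33 genes, some with several starts, and 37 windows, or 61.7%, held a match. The share was 51.4% for the enzymes (19 of 37 windows) and 78.3% for the others (18 of 23 windows). Counted per gene, 14 of 17 enzymes and 14 of 16 others had a match in at least 1 window, so the shares of windows depend on genes with several starts. The share per gene was not computed over all genes, so 43.2% is no background for these counts. The 16 others include CA9 and SLC16A3, which have no expression values here. A match of these letters is a description and not a site of binding. The windows of 4 genes are shown as examples, chosen with their values known. PFKL had the lowest p-value of all 35 genes and PLOD2 the lowest among those with a higher mean after silencing, CA12 is a hypoxia-induced gene with a lower mean, and BNIP3 is another with a higher one. Capitals mark matches in either direction, and the last letter lies just before the gene start. The windows lie at chr21:44299803-44300052 on the plus strand (PFKL), chr15:63381847-63382096 on the minus strand (CA12), chr10:131981924-131982173 on the minus strand (BNIP3) and chr3:146161185-146161434 on the minus strand (PLOD2).
PFKL: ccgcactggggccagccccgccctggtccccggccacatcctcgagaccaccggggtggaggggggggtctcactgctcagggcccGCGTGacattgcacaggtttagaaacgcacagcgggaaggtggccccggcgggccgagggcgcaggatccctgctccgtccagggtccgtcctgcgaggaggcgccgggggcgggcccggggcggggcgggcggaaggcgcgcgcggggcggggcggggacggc
CA12: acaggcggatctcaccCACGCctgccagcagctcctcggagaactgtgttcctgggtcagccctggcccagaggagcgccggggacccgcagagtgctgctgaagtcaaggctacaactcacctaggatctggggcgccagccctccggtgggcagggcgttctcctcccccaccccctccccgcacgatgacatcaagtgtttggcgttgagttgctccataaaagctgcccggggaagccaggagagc
BNIP3: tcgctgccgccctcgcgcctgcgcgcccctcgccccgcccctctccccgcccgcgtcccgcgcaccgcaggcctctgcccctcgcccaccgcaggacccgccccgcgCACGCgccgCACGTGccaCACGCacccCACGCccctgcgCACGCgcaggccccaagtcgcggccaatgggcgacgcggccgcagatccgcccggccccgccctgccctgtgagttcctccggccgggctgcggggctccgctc
PLOD2: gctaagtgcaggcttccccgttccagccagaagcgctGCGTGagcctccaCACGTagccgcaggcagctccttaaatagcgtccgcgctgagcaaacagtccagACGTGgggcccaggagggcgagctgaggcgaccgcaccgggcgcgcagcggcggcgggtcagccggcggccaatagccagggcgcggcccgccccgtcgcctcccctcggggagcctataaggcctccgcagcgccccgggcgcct
PFKL and CA12 each held 1 match, starting at base -164 and base -234 from the gene start. BNIP3 held 6 matches and PLOD2 held 3. These chosen windows do not show how matches go with direction, which was not tested. The window of P4HA2, a gene with a higher mean, held 0 matches, and 1 window of LDHA, with a slightly lower mean, held 5. SLC2A3, BNIP3L, VEGFA and NDRG1 have no entry among the promoters used.

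No member among the 35 genes passed the threshold for a change after NME2 silencing (limma, Benjamini-Hochberg adjusted p under 0.05), against 0.540% of all tested genes. Adjusted p-values ran from 0.143 for PFKL to 0.996 for BNIP3L. An unadjusted p under 0.05 was found for 7 of 35 genes, or 20.0%, against 15.0% of all tested genes. Of these 7, PLOD2, VEGFA, P4HA2 and BNIP3 had higher signals in NME2-depleted cells (11.4% of the 35, against 7.25% of all genes), and PFKL, TPI1 and CA12 had lower ones (8.57%, against 7.75%). The groups of arrays did not overlap for 7 genes, again 20.0%, against 20.6% of all tested genes. Differences are log2 signals in NME2-depleted minus control arrays, and they ranged from -0.39 (PFKL) to 0.21 (ADM). Their median was -0.01 over the 35 genes and 0.00 over all tested genes. The 95% confidence interval lay within a 1.5-fold change either way for 32 of 35 genes, the exceptions being PFKL, ALDOC and HK2, and for 71.5% of all tested genes. This holds for the brightest probe set. The median SE was 0.09 for the 35 genes and 0.12 for all tested genes, so these shares rest on unlike precision. For 8 of the 32 genes, among them SLC2A3, P4HA2, VEGFA, TPI1 and PDK3, the interval of another tested probe set reached past 1.5-fold, and 24 genes had every tested probe set within it. A missed threshold does not show that the groups were alike. With each array left out in turn, PFKL, PFKM, TPI1, VEGFA, BNIP3, P4HA1 and PLOD2 stayed within 1.5 times of their difference, and the other 28 genes moved further without at least 1 array.

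**Figure D1:**
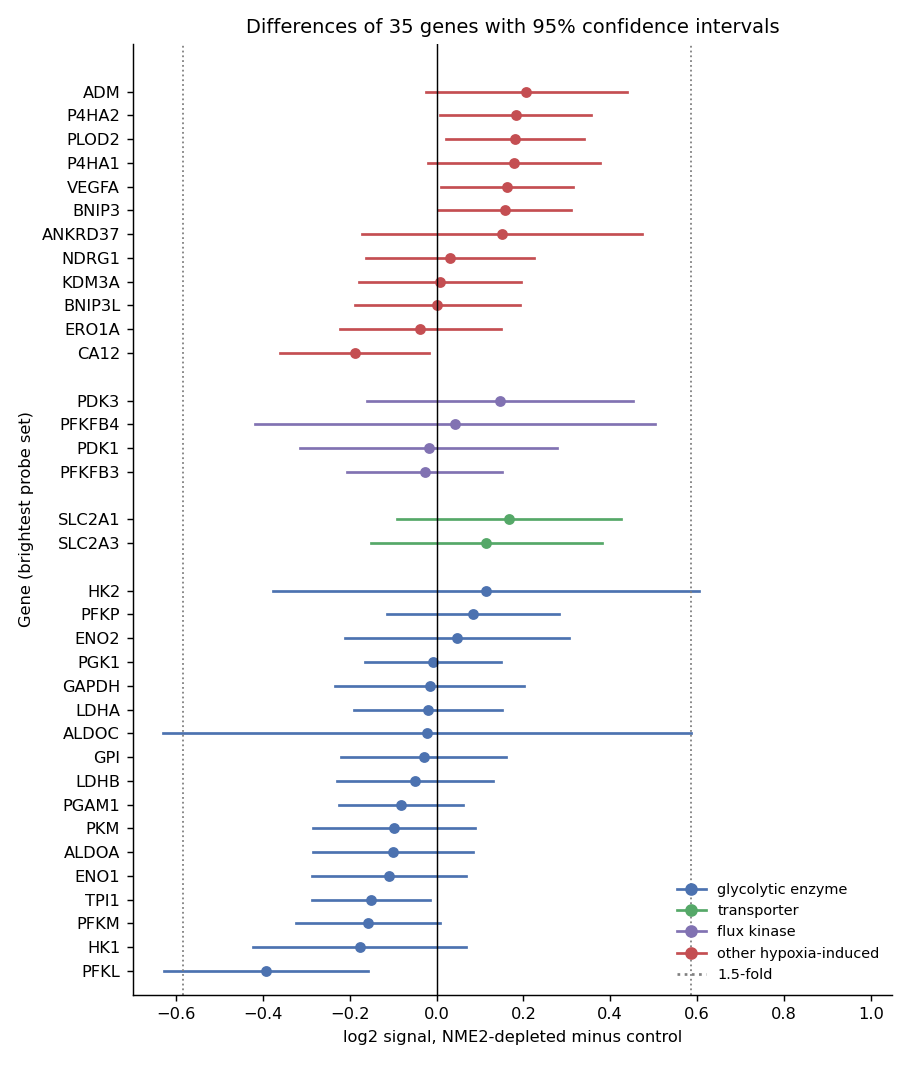
Difference of each of the 35 genes between NME2-depleted and control arrays. The horizontal axis is the log2 signal, NME2-depleted minus control, points are limma estimates from 3 arrays per group, horizontal lines are 95% confidence intervals, dotted lines mark 1.5-fold and colours mark roles. Enzymes lie mostly left of 0 and the other hypoxia-induced genes mostly right of it, and PFKL, at -0.39, lies farthest from 0.

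The NME2 probe set, which also carries the symbol of a read-through transcript, was 6.85-fold lower in depleted cells (log2 difference -2.78, SE 0.19, limma adjusted p = 0.00032). All 5 epithelial markers were tested, with mean signals of 560.8 to 30187, whereas only 1 of 5 endothelial, 2 of 5 fibroblast and 3 of 4 leukocyte markers were bright enough, with mean signals up to 432.6, and PTPRC, CDH5 and VWF lay below the filter. None of the tested markers passed the threshold, and the largest difference among them was that of EPCAM, 0.71 (limma adjusted p = 0.0884). Control probe sets at both ends of ACTB gave 3'/5' ratios, which reflect RNA integrity, of 1.33 to 1.40 on depleted and 1.20 to 1.30 on control arrays, and those of GAPDH gave 0.985 to 1.06 and 0.970 to 1.02. The part of RNA integrity in the differences below was not tested.

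Most enzymes had a slightly lower mean signal in NME2-depleted cells, and none passed the threshold. Of 17 enzymes, 14 had a lower mean and 3 (HK2, PFKP and ENO2) a higher one, against 49.8% lower among all tested genes. The median difference was -0.05. The median SE of a single enzyme was 0.08, which is not the uncertainty of that median. Leaving out control replicate 1 gave -0.11, NME2-depleted replicate 3 -0.10 and NME2-depleted replicate 1 -0.02. Centring each array on its median gave -0.10, but it also moved the median of all tested genes from 0.00 to -0.05. Leaving out probe sets that the manufacturer marks as shared between transcripts kept 8 of the 17 enzymes and gave a median of 0.01. The 8 included HK2, PFKP and ENO2, and TPI1 was then taken from a much dimmer probe set, with 0.37. Groups did not overlap for PFKL, TPI1 and PFKM, all lower in depleted cells, which is 17.6% of the enzymes against 10.1% of all tested genes.

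Phosphofructokinase, which commits the sugar to glycolysis, has liver, muscle and platelet subunits, whose differences had both signs. PFKL, the liver subunit, had signals of 579.9, 619 and 529.6 on the depleted arrays and 760.5, 786.2 and 720.4 on the control arrays. Every depleted array lay below every control array. With an SE of 0.11 and a 95% interval of -0.63 to -0.16, the log2 difference was -0.39, or 1.31-fold lower (limma adjusted p = 0.143), and it stayed between -0.45 and -0.33 whichever array was left out. The adjusted p ran from 0.0894 to 0.369 over the alternatives. Both PFKL probe sets are of kinds that can also bind other transcripts, and the second had a difference of -0.05 (SE 0.12) with overlapping groups. PFKM, the muscle subunit, had 1582, 1672 and 1676 on depleted against 1797, 1879 and 1828 on control arrays, again with no overlap (difference -0.16, SE 0.08, adjusted p = 0.406). PFKP, the platelet subunit, had the opposite sign (0.08, SE 0.09, adjusted p = 0.745), and it was 0.01 without NME2-depleted replicate 1 or control replicate 2. Its signals were highest on replicate 1 of both groups, at 8220 and 7739.

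TPI1, triose phosphate isomerase, interconverts the products of the aldolase step. Its brightest probe set had 14741, 15131 and 14666 on depleted arrays and 15825, 16998 and 16628 on control arrays. Here too the groups were separate. The difference was -0.15 (SE 0.06, adjusted p = 0.341). The 2 other tested probe sets of TPI1 did not share this direction throughout, with -0.06 (SE 0.08) and 0.37 (SE 0.19). The last of these was much dimmer, at 177.1 to 283.9.

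Hexokinases trap glucose in the cell by phosphorylating it. HK1 had 2533.3, 2250.6 and 1972.5 on depleted and 2199, 2668 and 2768 on control arrays, with a difference of -0.18 (SE 0.11). HK2, the inducible form, was dim here, at 133.1, 139.3 and 113.2 on depleted and 106.7, 120.5 and 129.1 on control arrays. Its difference was 0.11, with an SE of 0.22 that was larger, and it ran from 0.04 without control replicate 1 to 0.20 without NME2-depleted replicate 3. That of HK1 ran from -0.28 without control replicate 1 to -0.08 without NME2-depleted replicate 3. For HK2, 2 more probe sets lay below the filter. The groups overlapped for both genes.

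GAPDH, the dehydrogenase that feeds NADH to lactate formation and a common reference transcript, had a difference close to 0. It had 24720, 28111 and 31688 on the depleted arrays and 25278, 29902 and 30136 on the control arrays, a difference of -0.02 (SE 0.10, 95% interval -0.23 to 0.20). The 2 other GAPDH probe sets had -0.01 and 0.01, and the 3 GAPDH control probe sets of the array, left out of the test, had -0.01, -0.05 and -0.04 from the 3' end to the 5' end. LDHA, the main subunit of lactate dehydrogenase in glycolytic cells, had 26078, 27889 and 30592 on depleted and 26604, 29193 and 29879 on control arrays. Its difference was -0.02 (SE 0.08), and that of LDHB, the subunit favoured in oxidative tissues, was -0.05 (SE 0.08). PGK1, which makes ATP in the lower part of the pathway, had 17550, 19945 and 19130 on depleted and 18007, 19818 and 19100 on control arrays. Its difference was -0.01 (SE 0.07), with 5 tested probe sets between -0.13 and 0.00.

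The remaining enzymes lay between -0.11 and 0.05. ENO1, the main enolase, had -0.11 (SE 0.08), ALDOA, the main aldolase, -0.10 (SE 0.08), and PKM, pyruvate kinase, -0.10 (SE 0.08). Without NME2-depleted replicate 1 these were -0.04, -0.02 and -0.02, and without control replicate 1 they were -0.17, -0.16 and -0.17. Between arrays of the same replicate number, ENO1, ALDOA and PKM were lower on the depleted array each time, from -0.14 to -0.07. PGAM1 (phosphoglycerate mutase) had -0.08, GPI (glucose phosphate isomerase) -0.03, and ALDOC and ENO2, the neuronal forms of aldolase and enolase, -0.02 and 0.05. All 3 tested probe sets of ALDOA and of ENO1 were lower, from -0.15 to -0.09 and from -0.17 to -0.09. The second probe set of PKM had -0.30 (SE 0.12, adjusted p = 0.312) and separated the groups.

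Within both groups many enzyme signals were lowest on replicate 1. This held for 10 of 17 enzymes, or 58.8%, against 15.3% of all tested genes and 4 of the 18 other members. The 99th percentile of signal, which depends on the brightest transcripts, was also lowest on these arrays, reaching 12492 on the depleted and 12436 on the control array, and it lay between 12755 and 13424 on the other 4. The part of this brightness shift in the enzyme differences was not tested. ALDOC had a pattern of its own, with 572.3 and 586.8 on replicate 2 of the depleted and control groups and 292.9 to 358.2 on the other 4 arrays. Its interval ran from -0.63 to 0.59.

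**Figure D2:**
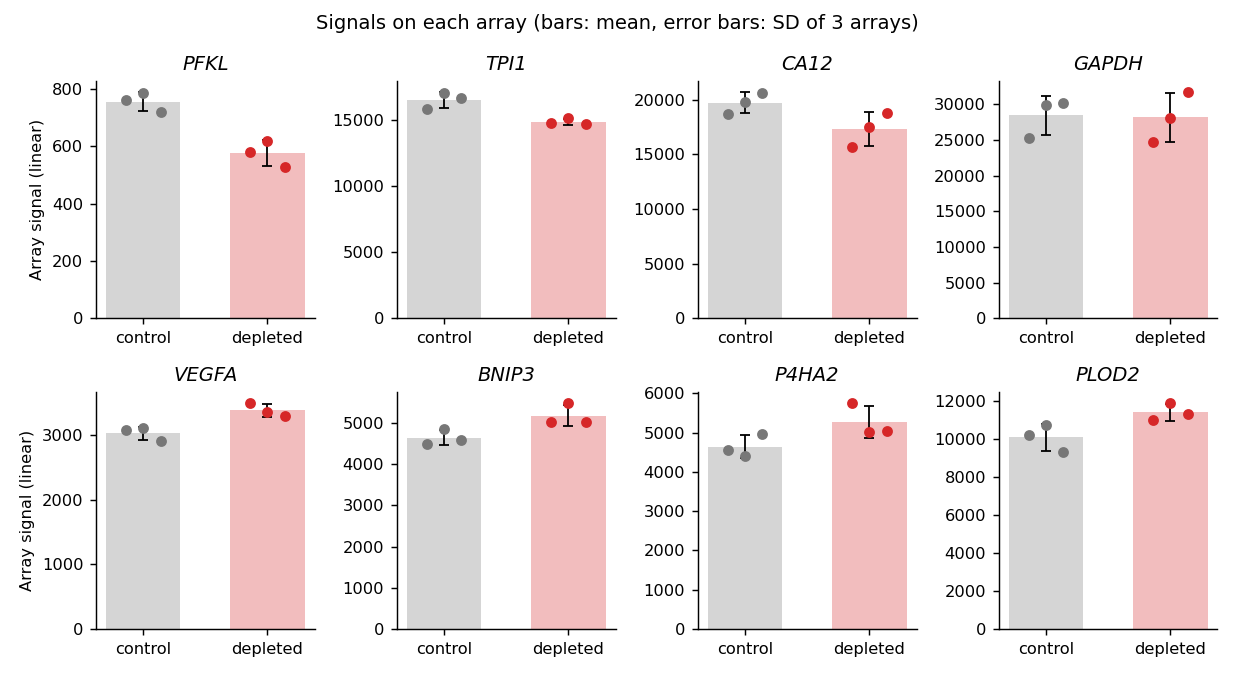
Array signals of 8 genes in control and NME2-depleted cells. The vertical axis of each panel is the linear array signal, dots show single arrays, bars are means and error bars the SD of 3 arrays per group. PFKL and TPI1 are lower on every depleted array, VEGFA, BNIP3, P4HA2 and PLOD2 are higher on every depleted array, and the groups of CA12 and GAPDH overlap.

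For transporters and regulatory kinases the groups overlapped in every gene. SLC2A1, the basal glucose transporter, had 3594, 3683 and 3289 on depleted and 2537, 3391 and 3577 on control arrays, a difference of 0.17 (SE 0.12). It rested on control replicate 1, without which the difference was 0.01. SLC2A3, a high-affinity glucose transporter, had 790.1, 767.9 and 618.9 on depleted and 621.3, 702.6 and 677.7 on control arrays, a difference of 0.11 (SE 0.12), which ran from 0.05 without NME2-depleted replicate 1 to 0.23 without NME2-depleted replicate 3. All 3 tested probe sets of SLC2A3 were higher, up to 0.50 (SE 0.18, adjusted p = 0.28), and that one separated the groups. SLC2A14, a close copy of SLC2A3, may share these signals.

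The kinases PDK1 and PDK3 switch off pyruvate dehydrogenase and so limit the oxidation of pyruvate in mitochondria. PFKFB3 and PFKFB4 make the fructose bisphosphate that activates phosphofructokinase. PDK3 had 852.8, 958.5 and 960.5 on depleted and 695.2, 1041 and 800.9 on control arrays, a difference of 0.15 (SE 0.14), and its 5 tested probe sets ran from -0.32 to 0.51. It was 0.02 without control replicate 1 and 0.31 without control replicate 2. PFKFB3 had 4221, 4653 and 4847 on depleted and 4356, 5046 and 4589 on control arrays, a difference of -0.03 (SE 0.08). PDK1 had -0.02 (SE 0.13) and PFKFB4 0.04 (SE 0.21). PFKFB4 was lowest on replicate 2 of both groups, at 468.5 and 430.6, and reached 786.8 on depleted and 692.5 on control arrays.

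Among the 12 further hypoxia-induced genes, 10 had a higher mean in NME2-depleted cells, and the median difference was 0.15. Groups did not overlap for PLOD2, VEGFA, P4HA2 and BNIP3, which is 33.3% of the 12 against 10.4% of all tested genes. With transporters and kinases included, 14 of 18 genes had a higher mean, against 50.2% of all tested genes, and the median was 0.13. This median depended on control replicate 1, without which it was 0.05, and centring each array on its median gave 0.08. These counts and medians are a description and carry no test.

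VEGFA encodes the growth factor that drives new vessels toward poorly oxygenated tissue. Its brightest probe set had 3496, 3356 and 3303 on depleted arrays and 3073, 3102 and 2905 on control arrays. The lowest depleted array lay above the highest control array. The difference was 0.16 (SE 0.07, 95% interval 0.01 to 0.31, adjusted p = 0.36), which is 1.12-fold, and it stayed between 0.13 and 0.18 whichever array was left out. The 3 other probe sets had 0.01, 0.04 and 0.38. ADM, adrenomedullin, a vasodilator peptide, had the highest difference of the 35 genes, 0.21 (SE 0.10, adjusted p = 0.438), with 2882, 2440 and 2924 on depleted and 2493, 2060 and 2604 on control arrays. Replicate 2 was the lowest in both groups, and the groups overlapped. Without control replicate 2 the difference was 0.10, below that of PDK3, 0.31.

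The enzymes of collagen modification, which work in the endoplasmic reticulum and need oxygen as a substrate, had higher means in all 3 cases. PLOD2, a lysyl hydroxylase, had 10967, 11879 and 11317 on depleted arrays and 10213, 10711 and 9279 on control arrays. Every depleted array was above every control array for its other probe set as well. The differences were 0.18 (SE 0.07, adjusted p = 0.327) and 0.21 (SE 0.09). P4HA2, a prolyl hydroxylase subunit, had 5753, 5019 and 5036 on depleted and 4557, 4406 and 4959 on control arrays, a difference of 0.18 (SE 0.08, adjusted p = 0.367). Without NME2-depleted replicate 1 that difference was 0.12. The second tested probe set of P4HA2 had 0.39 (SE 0.15) and separated the groups too. P4HA1, the other such subunit, had 3264, 3400 and 2830 on depleted and 2691, 3040 and 2652 on control arrays, a difference of 0.18 (SE 0.09), and its groups overlapped.

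BNIP3 and BNIP3L are receptors that mark mitochondria for mitophagy, and they differed from each other in size. BNIP3 had 5040, 5490 and 5025 on depleted arrays and 4493, 4848 and 4603 on control arrays. The groups were separate, and the difference was 0.16 (SE 0.07, adjusted p = 0.375). Its other probe set had 0.02 (SE 0.12). BNIP3L had 0.00 (SE 0.09). The difference between the genes was not tested.

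CA12, a membrane carbonic anhydrase that takes part in pH control, went the other way. Its brightest probe set had 15688, 17515 and 18839 on depleted arrays and 18736, 19845 and 20634 on control arrays. NME2-depleted replicate 3 lay just above control replicate 1, so the groups overlapped. The difference was -0.19 (SE 0.08, 95% interval -0.36 to -0.02, adjusted p = 0.344), which is 1.14-fold lower, and it was -0.12 without NME2-depleted replicate 1. All 7 tested probe sets of CA12 were lower, from -0.33 to -0.13, and 3 of them separated the groups. The lowest p-value among them belonged to a probe set with 4515, 4999 and 4893 on depleted and 5711, 6114 and 5788 on control arrays (difference -0.29, SE 0.07, adjusted p = 0.11). The probe sets measure the same transcripts and are not independent.

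The remaining genes of this group were ANKRD37, NDRG1, KDM3A and ERO1A. ANKRD37, an ankyrin repeat protein, had 0.15 (SE 0.15), from 0.06 without control replicate 3 to 0.28 without NME2-depleted replicate 1. NDRG1, a stress-responsive differentiation gene, had 0.03 (SE 0.09), and KDM3A, a histone demethylase, 0.01 (SE 0.09). ERO1A, the oxidase that drives disulfide formation in the endoplasmic reticulum, had 3558, 3116 and 3194 on depleted and 3664, 3345 and 3121 on control arrays, a difference of -0.04 (SE 0.08). Another probe set of ERO1A had 3125, 3110 and 3281 on depleted and 2819, 2691 and 2630 on control arrays. It separated the groups (0.23, SE 0.07, adjusted p = 0.201), whereas the third probe set had 0.02, so its direction depended on the probe set.

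**Figure D3:**
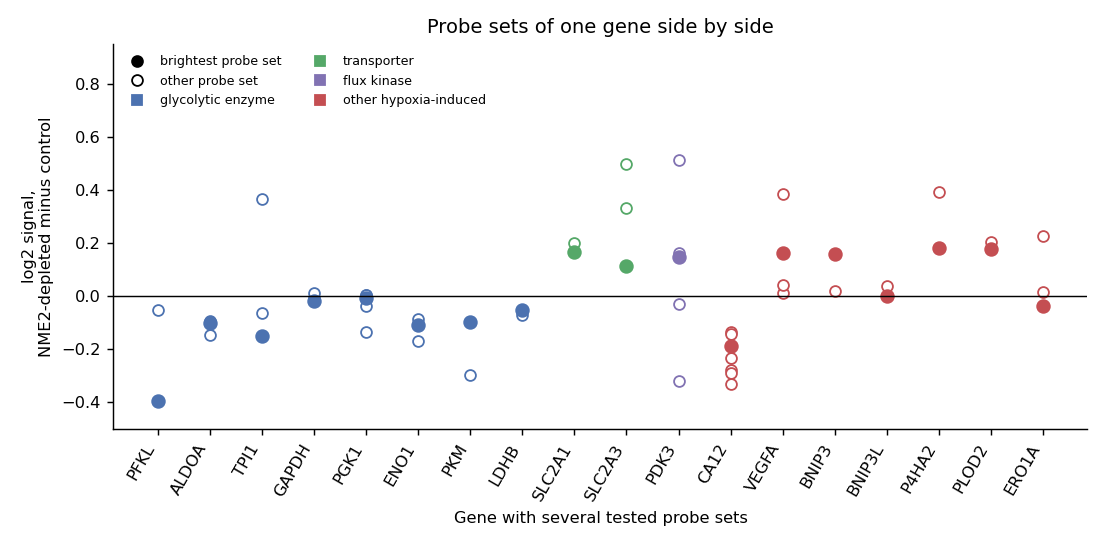
Differences of all tested probe sets for the 18 genes with more than 1. The vertical axis is the log2 signal, NME2-depleted minus control, filled points are the brightest probe set and open points the others. All 7 probe sets of CA12 lie below 0, whereas those of TPI1, GAPDH, PGK1, PDK3 and ERO1A lie on both sides.

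Several probe sets were tested for 18 of the 35 genes, and those of 5 (TPI1, GAPDH, PGK1, PDK3 and ERO1A) differed in sign. None of the 72 tested probe sets passed the threshold, while 15, or 20.8%, had an unadjusted p under 0.05, against 12.9% of all 27307 tested probe sets. Of these 15, 9 were higher and 6 lower, and probe sets of the same gene are not independent. The choice of the brightest probe set therefore decided the sign for some genes and the size for others such as PFKL and VEGFA.

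The enzymes were then set against the other hypoxia-induced genes array by array. Signals were taken on the log2 scale relative to each gene's mean over 6 arrays. The enzyme median was -0.13, -0.02 and 0.02 on NME2-depleted replicates 1 to 3 and -0.09, 0.09 and 0.10 on control replicates 1 to 3. The median of the other 18 genes was 0.07, 0.09 and 0.01 on the depleted and -0.07, 0.02 and -0.05 on the control arrays. The others minus the enzymes came to 0.20, 0.11 and -0.01 on the depleted arrays and to 0.02, -0.06 and -0.14 on the control arrays. The groups of arrays overlapped in this gap, since NME2-depleted replicate 3 lay below control replicate 1. Between arrays of the same replicate number, 1 to 3, depleted minus control was -0.05, -0.11 and -0.08 for the enzyme median. For the median of the other 18 genes it was 0.14, 0.06 and 0.05. Whether arrays of the same number are pairs is not stated. Medians of all tested genes stayed between -0.01 and 0.01. No p-value is given for these medians, because they are scores over genes chosen by name.

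**Figure D4:**
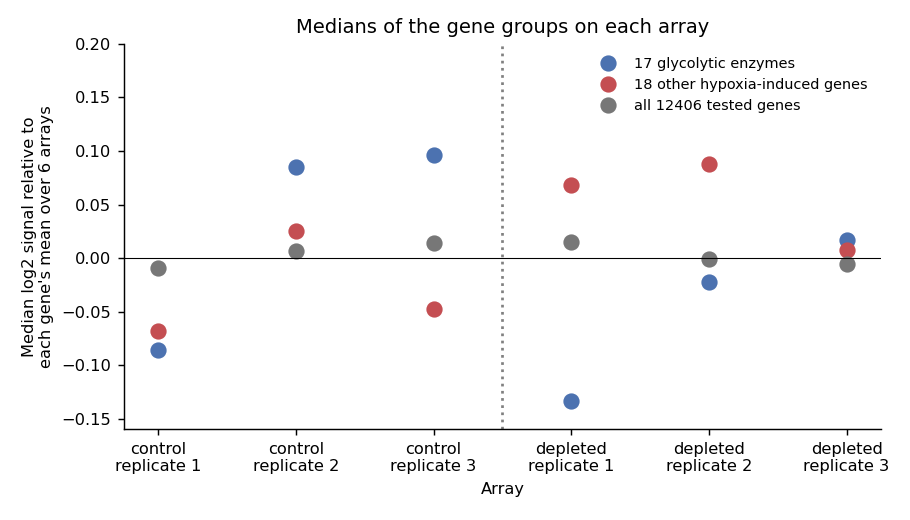
Medians of the 17 enzymes, the 18 other hypoxia-induced genes and all 12406 tested genes array by array. Plotted vertically is the median log2 signal relative to each gene's mean over the 6 arrays. The 2 sets of members lie farthest apart on NME2-depleted replicate 1, at -0.13 and 0.07, and the enzymes lie above the others on control replicates 2 and 3 and on NME2-depleted replicate 3.

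Neighbouring genes of the same pathways showed the same absence of calls among metabolic genes and a single call among HIF pathway genes. Of 39 further genes of glucose metabolism 27 were tested, and 0 passed, with 4 at an unadjusted p under 0.05 (14.8%), 2 higher and 2 lower, and a median of 0.02. The lowest p-values belonged to SLC16A4, a monocarboxylate transporter family member (0.27, SE 0.09, adjusted p = 0.209), and to MPC1, a subunit of the mitochondrial pyruvate carrier (0.37, SE 0.13, adjusted p = 0.25). Both separated the groups, with SLC16A4 at 7023, 7182 and 7747 on depleted against 6205, 6661 and 5348 on control arrays. Of 33 further genes of HIF signalling and its targets 29 were tested, and 1 fell and 0 rose. Over all tested genes, 0.540% were called in either direction. An unadjusted p under 0.05 was found for 5 of these 29 (17.2%), 3 higher and 2 lower, against 15.0% of all tested genes. By sign 17 of 29 were higher, or 58.6%, against 50.2% of all tested genes, and the median was 0.04. Both lists were chosen with earlier results of these data known.

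The gene that fell was HIF1AN, the asparaginyl hydroxylase known as factor inhibiting HIF, which lowers the activity of HIF when oxygen is present. It had 547.6, 497.3 and 538.3 on depleted arrays and 1044, 878.9 and 1026 on control arrays. Control signals all lay above the depleted ones, and HIF1AN fell by 0.89 on the log2 scale, or 1.86-fold (SE 0.11, limma adjusted p = 0.00982). It passed whichever array was left out (adjusted p from 0.0247 to 0.0497) and missed the threshold with no intensity trend in limma (adjusted p = 0.237).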

How the data were processed

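The authors deposited linear intensity values, 1 for each probe set, from Affymetrix HG-U133 Plus 2.0 arrays. The submitters' processing notes name GCOS 1.1.1, and each array has nearly the same mean, 500.06 to 500.07, once 2% is trimmed at each end. Such scaling hides a shift shared by all transcripts. The sources used here do not give the oxygen tension, the time after transfection or other scan settings. Detection calls were not used here, so dim probe sets are not called absent.

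From 54675 probe sets 62 control probe sets were left out, signals under 1 were set to 1, and log2 was taken. Probe sets whose mean log2 signal reached the median of all (a signal of 71.7) were tested, 27307 in all. Names come from the platform annotation of 2016, from probe sets with 1 symbol, and 0 symbols changed when looked up by gene identifier. A gene is represented by its brightest probe set. Apart from the cell type markers, levels are not compared between genes, since array signals have no common scale per length. That limit holds for the marker signals too.

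The test was limma 3.58.1, run in R 4.3.3 (2 group means, eBayes with an intensity trend), two-sided and adjusted by Benjamini-Hochberg over all tested probe sets. The exact two-sided permutation test of a single gene cannot go below p = 0.1 with 3 against 3 arrays, a value reached where groups did not overlap. The procedure was tested on simulated data. The number of arrays limits the precision. Groups and replicate numbers come from sample titles. The members, lists and tests were chosen with earlier results of these data known. Values on every array are given for genes with an unadjusted p under 0.05, for the extremes of each role, for GAPDH, LDHA and VEGFA, and for genes whose probe sets differ in sign. From the lists of neighbouring genes, those past the threshold or, with none, the 2 of lowest p are named. Alternatives were other scalings, filters, variance models, gene values, the replicate number as a block and each array left out. Promoter windows and gene starts are from RefSeq, GRCh38.p14.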

Additional observations from a re-analysis of the deposited data

How the results depend on the processing

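None of the 35 genes passed the threshold under any alternative fitted with limma, and the lowest adjusted p was 0.0579, for CA12 with the replicate block (from 0.0579 to 0.592 over its alternatives). The methods' t-test gave 5 of 35 genes at its unadjusted threshold and 0 after adjustment, and for all tested genes 1596 and 0. The count of all genes called, 67, became 21 with no filter, 110 with the filter at the 75th percentile, 0 with no intensity trend (1398 at an unadjusted p under 0.05), 28 when probe sets of each gene were averaged, and 11 to 43 with each array left out. The median of the other hypoxia-induced genes became 0.082 with median centring and ranged from 0.046 (without control replicate 1) to 0.13 with each array left out. The enzyme median kept its sign except without shared probe sets (0.01).

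The signs of small differences were not stable. With median centring they were -0.0014 (ENO2), -0.0059 (PFKFB4), -0.046 (BNIP3L), -0.017 (NDRG1) and -0.041 (KDM3A), where the median of tested genes moved to -0.05, and KDM3A had -0.0036 with array weights. TPI1 had 0.37 without shared probe sets and 0.052 when its probe sets were averaged, which gave 0.068 for ERO1A. These are the 9 sign changes among 366 combinations of gene and alternative. With each array left out, 14 genes changed sign. Ranges were -0.30 to 0.26 for ALDOC, -0.088 to 0.074 for BNIP3L, -0.038 to 0.17 for ENO2, -0.095 to 0.023 for ERO1A, -0.10 to 0.074 for GAPDH, -0.11 to 0.032 for GPI, -0.047 to 0.039 for KDM3A, -0.081 to 0.034 for LDHA, -0.12 to 0.0090 for LDHB, -0.046 to 0.11 for NDRG1, -0.076 to 0.056 for PDK1, -0.076 to 0.030 for PFKFB3, -0.17 to 0.21 for PFKFB4 and -0.049 to 0.043 for PGK1. The causes were not tested.

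Replicate numbers are shared between the groups. Deviations of arrays with the same number correlated at 0.114, 0.0805 and 0.0702 across probe sets, and each array correlated best with its own number, which is a hint from the data and not the design. With the replicate block 284 genes were called instead of 67, and 0 of the 35 genes.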

Other observations

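Of the 84 probe sets of the 35 genes, 12 lay below the filter and have no adjusted p. A second probe set of PFKP was among them. It had 115.4, 117.3 and 54.5 on NME2-depleted arrays and 19, 51.8 and 39.5 on control arrays, a log2 difference of 1.42 (SE 0.52) with groups that did not overlap, whereas the brightest probe set of PFKP had 0.08. At such signals the size is uncertain. A dim probe set of P4HA2 had the opposite sign to the other P4HA2 probe sets (-1.40, SE 0.88), at 4.9 to 9 on depleted and 8.1 to 44.3 on control arrays. That of ENO1 was lower, also with groups that did not overlap (-0.62, SE 0.45). The largest difference among the untested probe sets was that of a KDM3A probe set, 2.11 (SE 1.17), with overlapping groups.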
